A study of Mus musculus with 9 samples.

Results

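The suppressors of cytokine signalling, the SOCS family, comprise 8 genes in the mouse, Cish and Socs1 to Socs7, and were taken here by gene symbol. They made up 8 of 27203 genes and 20 of 60108 transcript rows in a table of lung RNA sequencing values. The study asked how the lung transcriptome changes early and later in ventilator-induced lung injury (VILI), the damage caused by mechanical ventilation itself. Whole lung RNA came from 9 male C57BL/6 mice aged 6 to 8 weeks, 3 per group, with no genetic change named for any group. Control mice were intubated but not ventilated. VILI 0 hours mice were killed directly after ventilation for 4 hours with breaths of 20 ml/kg, and VILI 6 hours mice were killed 6 hours after the same ventilation. The ventilated mice were kept under ketamine, xylazine and pancuronium, and how long the control mice were under anaesthesia is not given in the sources used here, so stretch and the ventilation procedure as a whole cannot be told apart. Each library stood for 1 mouse, so the p-values measure the spread between these mice.

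Cytokine receptors of the JAK-STAT pathway carry Janus kinases (JAKs) that phosphorylate STAT transcription factors, and the STATs then enter the nucleus. Genes of the SOCS family are among the STAT targets, and their proteins feed back on the pathway. Each SOCS protein holds an SH2 domain, which binds phosphorylated tyrosine, and a SOCS box, which recruits elongins and a cullin to attach ubiquitin to bound proteins. SOCS1 and SOCS3 also inhibit JAKs directly through a kinase inhibitory region. In inflammation, SOCS3 is known for limiting signals of the interleukin-6 family through gp130 and of granulocyte colony-stimulating factor, SOCS1 for limiting interferon signals, and CISH and SOCS2 for limiting STAT5 signals.

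Levels are FPKM, the fragments of a transcript scaled to its length and to the size of the library, and since FPKM is per length, levels of different genes can be compared. The FPKM of a gene is the sum over its transcript rows. Fold changes are on the scale log2(FPKM + 0.1), from 1 limma fit of all 9 libraries over 19378 genes, and understate changes of low genes. A gene was called where its unadjusted P was under 0.05, and the verbs rose and fell are kept for such genes. The Benjamini-Hochberg adjusted p over all genes, or over all rows for a row, is given beside each call. The 3 comparisons share groups and are not independent of each other. The table holds no read counts, the read totals given by the study were not used here, and the precision of a value rests on the 3 mice.

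Before the results, 2 libraries have to be set apart. VILI 6 hours replicate 1 had 489 FPKM of erythroid markers, against 3225 to 5419 in the other 8 libraries, and the lowest neutrophil marker sum of the ventilated lungs at 467 FPKM. Markers of lung tissue were high in all 9 libraries, with alveolar type 2 markers at 12250 to 15310 FPKM and endothelial markers at 764 to 945 FPKM. Of 6 alveolar type 2 markers, 1 was higher at VILI 0 hours and 1 lower at VILI 6 hours. Of 6 endothelial markers, 1 was lower at VILI 0 hours, 2 at VILI 6 hours and 1 between the times. Cardiac muscle markers were 301.7 FPKM in VILI 0 hours replicate 3, against 135.6 to 167.0 FPKM in the other 8 libraries, with 0 of 6 called in any comparison. Without VILI 0 hours replicate 3, 2 of 8 members were called in VILI 0 hours vs control in place of 3, beside 11.2% of all genes in place of 16.2%. Alveolar macrophage markers were 238.5 to 323.4 FPKM in control, 390.7 to 453.0 FPKM at VILI 0 hours and 256.7 to 663.0 FPKM at VILI 6 hours, with 4 of 8 genes higher at VILI 0 hours, 2 higher and 1 lower at VILI 6 hours, and 0 higher and 4 lower from 0 to 6 hours. Of 5 erythroid markers, 0 were called against control and 3 were lower from 0 to 6 hours. No marker gene of any list was at 0 in every library. Neutrophil markers rose in 8 of 8 genes at both times against control, from 48.5 to 56.8 FPKM in control to 560 to 1024 FPKM at VILI 0 hours and 467 to 1940 FPKM at VILI 6 hours. In whole lung, fewer cells of a type and less RNA per cell cannot be told apart.

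In control lung Socs2 was the most abundant member at 49.2 ± 3.20 FPKM (SD, n = 3). Socs5 at 13.01 ± 1.14, Socs4 at 12.8 ± 0.244, Cish at 12.1 ± 0.357 and Socs3 at 11.1 ± 1.19 FPKM followed, where the ranges of Socs5 and Socs4, and of Cish and Socs3, overlapped. Socs6 at 7.64 ± 0.905, Socs7 at 6.47 ± 0.121 and Socs1 at 3.29 ± 0.251 FPKM came last, each apart from its neighbours. At VILI 0 hours the order of the means was Socs2, Socs3, Cish, Socs4, Socs5, Socs6, Socs7 and Socs1, where the neighbours from Socs4 to Socs7 overlapped. By VILI 6 hours the highest mean was that of Socs3 at 94.9 ± 66.8 FPKM, which overlapped Socs2 at 57.0 ± 16.9 FPKM. The 8 genes summed to 114 to 119 FPKM in control, 147 to 156 FPKM at VILI 0 hours and 120.2 to 290.5 FPKM at VILI 6 hours. Socs3 accounted for 8.65% to 10.7% of that sum in control, 15.5% to 28.7% at VILI 0 hours and 21.2% to 54.6% at VILI 6 hours.

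**Figure D1:**
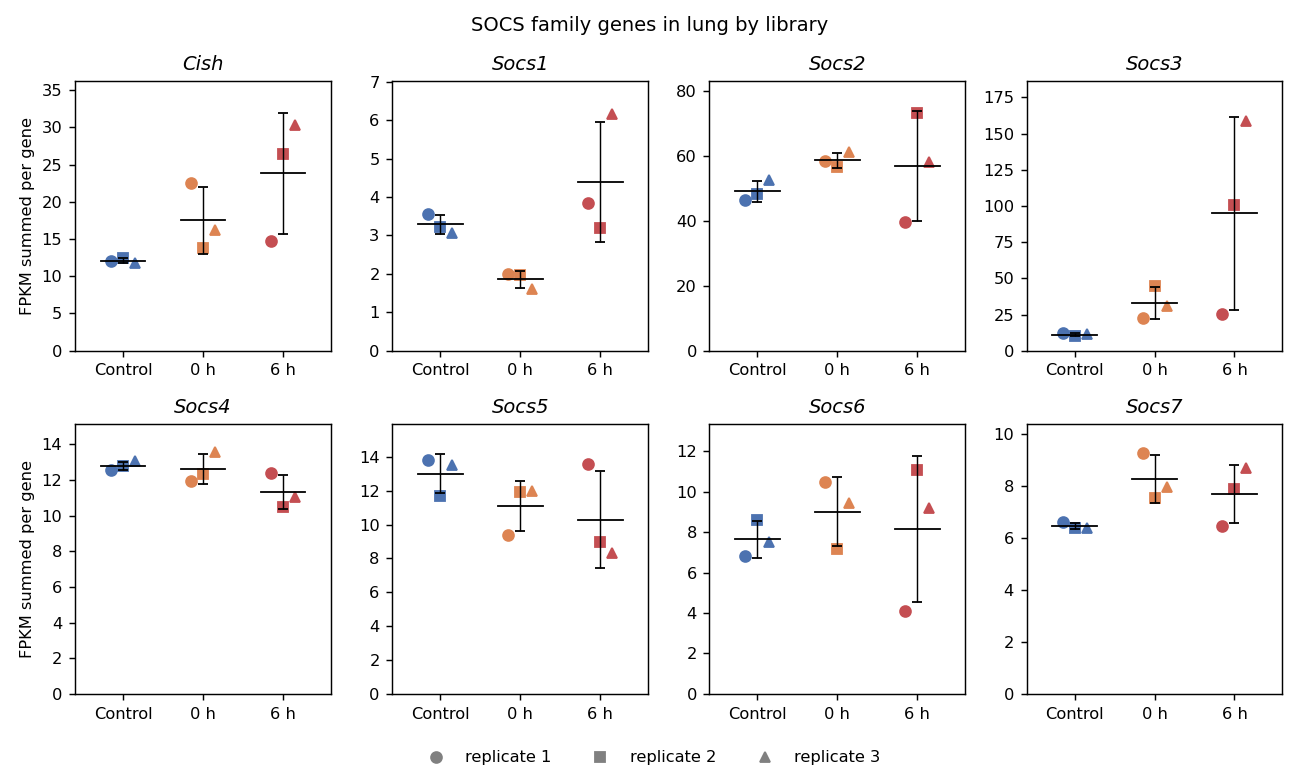
Summed FPKM of each SOCS family gene (y axis, from 0) in the 9 libraries, by group (x axis: control, then 0 h and 6 h for the ventilated groups). Points are single libraries, horizontal lines are group means and bars are ± SD, n = 3. Socs3 runs from about 11.1 FPKM in control to 158.7 FPKM in VILI 6 hours replicate 3, and all 3 VILI 0 hours libraries of Socs1 lie below the control libraries.

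In VILI 0 hours vs control, Socs3 and Socs7 rose and Socs1 fell. That is 2 of 8 higher, where 6.81% of all genes were higher, and 1 of 8 lower, where 9.35% of all genes were lower. The groups did not overlap for 5 of 8 members, where 33.5% of all genes did not overlap. In VILI 6 hours vs control, Socs3 and Cish rose and no member fell, beside 8.17% of all genes higher and 12.2% lower. Groups did not overlap for 3 of 8 members, beside 24.6% of all genes. From VILI 0 hours to VILI 6 hours, Socs1 alone rose and none fell, beside 5.06% and 4.94% of all genes, and it was also the only member of 8 without overlap, beside 12.5% of all genes. No gene sum of a member passed an adjusted p under 0.05 in limma in any comparison, where 55, 136 and 0 of all genes passed.

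**Figure D2:**
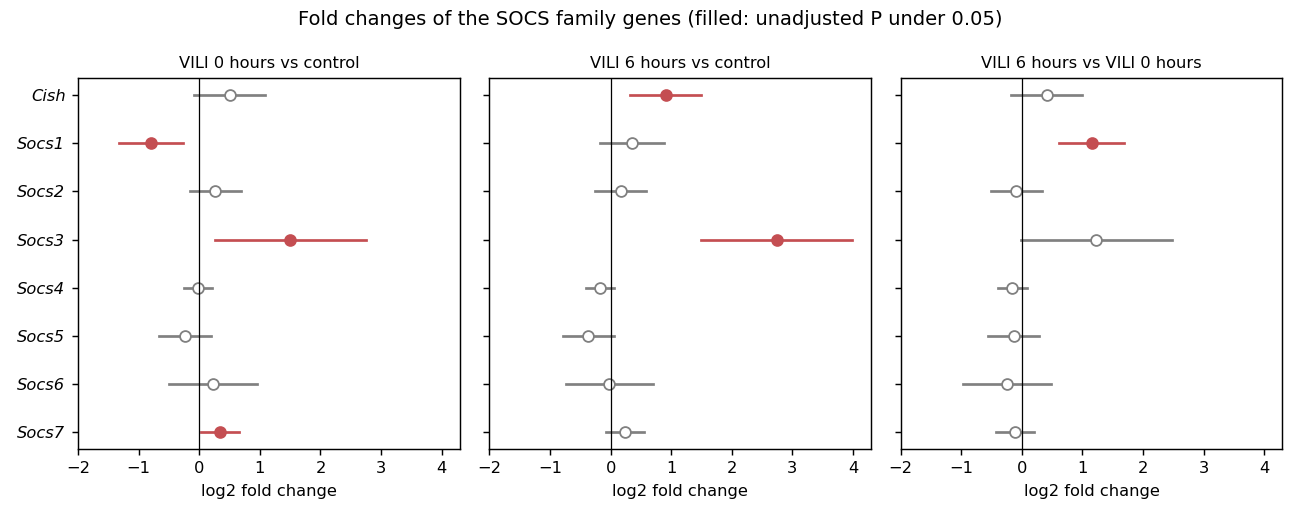
Log2 fold change of each SOCS family gene (x axis) with its 95% interval from limma, for the 3 comparisons. Filled red points have an unadjusted P under 0.05, and open grey points do not. Socs3 in VILI 6 hours vs control lies farthest from 0, at 2.74 with an interval of 1.49 to 3.98.

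Socs3 lies on chromosome 11 (GRCm38 chr11:117966079-117970047, minus strand). Its level was 12.17, 9.82 and 11.3 FPKM in the 3 control lungs. At VILI 0 hours it was 22.7, 44.7 and 30.7 FPKM, all above control. By 6 hours it was 25.5, 100.7 and 158.7 FPKM. Replicate 1 of VILI 6 hours thus stayed within the VILI 0 hours range, and the other two were far above it. Socs3 rose by 1.5 on the log2 scale (SE 0.56, adjusted p = 0.230) in VILI 0 hours vs control and by 2.74 (SE 0.56, adjusted p = 0.0625) in VILI 6 hours vs control. The step from 0 to 6 hours was 1.23 (95% interval -0.01 to 2.48, adjusted p = 0.506) and did not pass. Without VILI 6 hours replicate 1 that step was 2.0 and passed, and the rise to 6 hours was 3.50. Without VILI 6 hours replicate 3 the step was 0.69 and the rise to 6 hours 2.19, still called. The step also passed without VILI 0 hours replicate 2, at 1.49. The early rise lost its call without control replicate 2, at 1.42, and likewise without replicate 2 of VILI 0 hours, at 1.25.

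The neutrophil marker sum stood in the same order as Socs3 within both ventilated groups. It was 560, 1024 and 847 FPKM at VILI 0 hours and 467, 994 and 1940 FPKM at VILI 6 hours, in the order of replicates 1 to 3. Csf3r, 1 of the 8 markers, stood in another order than Socs3. It was 23.7, 33.4 and 57.05 FPKM at VILI 0 hours and 36.8, 24.65 and 27.9 FPKM at VILI 6 hours. The order of the other single markers is not given here. From 0 to 6 hours neither Socs3 nor any of the 8 neutrophil markers was called, and the median log2 fold change of the markers was 0.16. Monocyte markers were 38.3 to 41.0 FPKM in control, 30.6, 114.8 and 38 FPKM at VILI 0 hours and 101.2, 81.9 and 107.5 FPKM at VILI 6 hours. Their order at VILI 0 hours was that of Socs3, with replicate 2 far above the other two. At VILI 6 hours their order was not that of Socs3, with replicate 2 the lowest. At 6 hours 3 of 5 monocyte markers were higher than in control, and 1 of 5 was higher than at VILI 0 hours. The part of these cells in the Socs3 values was not tested.

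Sequence around the start site is shown for the called members whose start site RefSeq gives, upstream of it for Socs3 and Socs1 and just after it for Cish, since STAT and interferon regulatory factors are known to bind such regions of these genes. RefSeq windows on GRCm38.p6 matched 4 of the 8 members by symbol (Cish, Socs1, Socs3 and Socs4). Each window runs from 250 bases before the start to 50 bases from it on. Capitals mark matches to the STAT motif TTCNNNGAA or to an interferon regulatory factor motif of a pair of GAAA boxes with any 2 bases between them, searched on both strands. The Socs3 stretch (chr11:117969452-117969616, minus strand) is the longer of the 2 parts of the upstream window that no annotated exon covers, and it lies in an intron of a longer Socs3 transcript in GENCODE.
Socs3: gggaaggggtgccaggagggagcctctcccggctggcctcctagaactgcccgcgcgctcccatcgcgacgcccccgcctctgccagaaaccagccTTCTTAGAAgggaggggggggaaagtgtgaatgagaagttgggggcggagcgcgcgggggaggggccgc
Socs1: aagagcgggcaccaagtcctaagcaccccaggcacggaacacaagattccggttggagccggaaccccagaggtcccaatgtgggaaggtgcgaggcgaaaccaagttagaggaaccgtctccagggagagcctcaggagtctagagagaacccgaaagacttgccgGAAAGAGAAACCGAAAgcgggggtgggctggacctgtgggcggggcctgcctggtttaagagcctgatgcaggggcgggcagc
Cish: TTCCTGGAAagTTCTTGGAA
The Socs3 match spans positions -154 to -146 from the RefSeq start, at chr11:117969512-117969520. The Socs1 window is chr16:10785537-10785786 on the minus strand, directly upstream of the gene, and it holds 2 overlapping interferon regulatory factor matches, at -83 to -74 and -77 to -68. For Cish only the short stretch that carries 2 STAT matches is shown (chr9:107296659-107296678, plus strand), from position 1 to position 20 counted from the start, which is annotated as 5′ untranslated in 1 transcript. The STAT motif occurs in 7.02% of 32851 upstream windows of 250 bases and in 8.30% of the windows with the 50 further bases. The interferon regulatory factor motif occurs in 2.98% and 3.44% of them. The Socs4 window held no match. A match describes letters only, and no binding was measured here.

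Socs1 (chr16:10782240-10785536, minus strand) moved the other way from Socs3 at first. The 3 control lungs had 3.56, 3.22 and 3.07 FPKM, and the VILI 0 hours lungs had 2.002, 1.97 and 1.61 FPKM, where all 3 lungs were below every control lung. The 6 hours lungs had 3.85, 3.18 and 6.15 FPKM, which overlapped control and lay above VILI 0 hours. Socs1 fell by 0.79 on the log2 scale at VILI 0 hours (SE 0.23, adjusted p = 0.151). From VILI 0 hours to VILI 6 hours it rose by 1.15 (SE 0.23, adjusted p = 0.180). Against control the 6 hours value was 0.36 (95% interval -0.17 to 0.88, adjusted p = 0.399). Leaving out any 1 library kept the first change between -0.85 and -0.70 and the second between 0.89 and 1.35, and both calls held. The 6 hours value against control was 0.09 without VILI 6 hours replicate 3 and 0.56 without VILI 6 hours replicate 2, where it was called. B cell markers were 48.0 to 63.5 FPKM in control, 20.5 to 64.7 FPKM at VILI 0 hours and 13.8 to 39.4 FPKM at VILI 6 hours. Of 6 genes, 1 was lower at VILI 0 hours, 4 at VILI 6 hours and 1 from 0 to 6 hours, and 0 were higher. T cell markers were 21.5 to 30.4, 18.8 to 36.1 and 11.04 to 31.7 FPKM in the same order, with 0 of 7 tested called in any comparison. From 0 to 6 hours, where Socs1 rose, 4 of 8 alveolar macrophage markers and 3 of 5 erythroid markers were lower. The part of these cells in the Socs1 values was not tested.

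Cish (chr9:107296026-107302784, plus strand) varied little in control, at 12.05, 12.49 and 11.78 FPKM. It was 22.5, 13.7 and 16.3 FPKM at VILI 0 hours and 14.7, 26.4 and 30.3 FPKM at VILI 6 hours, so that every ventilated lung exceeded every control lung. Cish rose by 0.91 on the log2 scale in VILI 6 hours vs control (SE 0.26, adjusted p = 0.123). The value at VILI 0 hours was 0.50 (95% interval -0.09 to 1.08, adjusted p = 0.384) and the step between times was 0.41 (adjusted p = 0.645). Without VILI 6 hours replicate 1 the step was 0.72 and passed, as did the value at VILI 0 hours. Without VILI 6 hours replicate 3 the step was 0.20, and without VILI 0 hours replicate 2 it was 0.25. The value at VILI 0 hours was 0.30 without VILI 0 hours replicate 1 and 0.66 without VILI 0 hours replicate 2, where it passed. It also passed with only the 6 libraries compared.

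The Cish sum hid a difference between its rows, which are numbered here by their mean FPKM over the 9 libraries because the table gives no transcript identifiers. Row 1 was 9.55, 10.51 and 10.9 FPKM in control, 18.1, 12.3 and 14.4 FPKM at VILI 0 hours and 12.9, 13.4 and 14.0 FPKM at VILI 6 hours. Row 1 rose by 0.51 (adjusted p = 0.285) and 0.38 (adjusted p = 0.336) against control. Row 2 was 2.50, 1.98 and 0.880 FPKM in control, 4.46, 1.44 and 1.86 FPKM at VILI 0 hours and 1.79, 13.01 and 16.3 FPKM at VILI 6 hours. Row 2 rose by 2.09 at 6 hours (adjusted p = 0.342), high in replicates 2 and 3 only, where it held 49.2% and 53.8% of the Cish sum, against 7.47% to 20.8% in control and 12.2% in replicate 1. The row 1 call at 6 hours was lost without control replicate 1 or 2 or VILI 6 hours replicate 2 or 3, at 0.33 to 0.40. That of row 2 was lost without control replicate 2 or 3 or VILI 6 hours replicate 2 or 3, at 1.51 to 2.21. Row 3 was listed at 0 in every library. The Cish span is overlapped on the other strand by a pseudogene, Gm17040, and an antisense gene, Gm17041, neither of which has a row in the table. The kit is named differently in the labels and in the study's methods, so whether reads of the 2 strands were separated is uncertain for Cish.

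Socs2 (chr10:95385362-95417180, minus strand) was not called in its sum, while its 2 largest rows were called in opposite directions. The sum was 46.4, 48.5 and 52.6 FPKM in control, 58.4, 56.6 and 61.3 FPKM at VILI 0 hours and 39.6, 73.3 and 58.1 FPKM at VILI 6 hours. VILI 0 hours lay above control without overlap, with a log2 fold change of 0.26 (95% interval -0.16 to 0.68, adjusted p = 0.536). The 6 hours value was 0.17 (adjusted p = 0.616), where replicate 1 lay below every control lung and replicate 2 above every other lung. Without VILI 6 hours replicate 1 the sums passed at both times, at 0.26 and 0.41, and without VILI 6 hours replicate 2 the 6 hours value was -0.03. With only the 6 libraries compared, the VILI 0 hours value passed too. The sum and the most abundant row differ in sign, since row 1 alone gave -1.31 and -1.07.

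Row 1 of Socs2 was 38.7, 40.2 and 43.3 FPKM in control, or 82.2% to 83.4% of the sum. It was 17.7, 18.1 and 13.7 FPKM at VILI 0 hours and 15.8, 26.7 and 17.2 FPKM at VILI 6 hours, or 22.4% to 31.9% and 29.6% to 39.9% of the sum. It fell by 1.31 on the log2 scale (SE 0.20, adjusted p = 0.111) and by 1.07 (SE 0.20, adjusted p = 0.134). Row 2 was 0.578, 0.752 and 0.705 FPKM in control, 1.25% to 1.55% of the sum. It was 31.9, 31.1 and 23.3 FPKM at VILI 0 hours and 18.3, 35.6 and 32.2 FPKM at VILI 6 hours, or 38.1% to 54.96% and 46.2% to 55.4% of the sum. It rose by 5.21 (SE 0.26, adjusted p = 4.98e-04) and by 5.16 (SE 0.26, adjusted p = 5.37e-04), and was the 1 member row past an adjusted p under 0.05 in each comparison with control. Neither row was called between the 2 times, with 0.24 for row 1 and -0.05 for row 2.

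Of the other Socs2 rows, row 3 was 3.59 to 5.36 FPKM in control and 4.14 to 6.44 FPKM at VILI 6 hours, and it stood apart in VILI 0 hours replicate 3 at 21.6 FPKM beside 4.64 and 4.91 FPKM. Row 4 ran from 1.31 to 4.38 FPKM over all libraries, and rows 5 to 7 did not reach the mean of 0.1 FPKM. With 8202 genes that had 2 or more tested rows, 1.82% at VILI 0 hours and 2.06% at VILI 6 hours had a row higher and another lower at P under 0.05, and Socs2 was 1 of the 3 members with several tested rows to do so at each time. Cuffdiff divides reads among overlapping transcripts of a gene by estimation, and the table does not say which Socs2 transcript a row is.

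**Figure D3:**
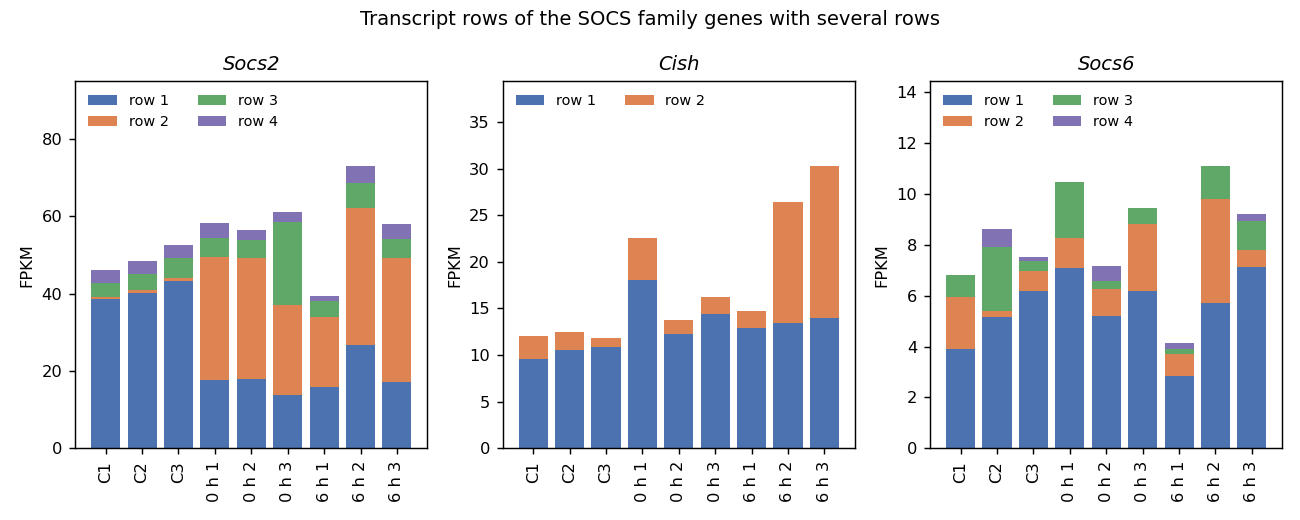
FPKM (y axis, from 0) of the transcript rows of Socs2, Cish and Socs6 in each library (x axis: C, control; 0 h and 6 h, VILI 0 hours and VILI 6 hours, with the replicate number), stacked to the sum of the gene. Rows that stayed under 0.3 FPKM are not drawn. Row 1 makes up most of each Socs2 control bar, row 2 is the largest part of each ventilated Socs2 bar, and row 2 of Cish reaches 13.01 and 16.3 FPKM in VILI 6 hours replicates 2 and 3.

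Over all tested rows of the family, 6 of 15 were called in VILI 0 hours vs control, beside 11.0% of all rows, and 5 of 15 in VILI 6 hours vs control, beside 13.2%. Between the times 1 of 15 was called, beside 7.40%. At an adjusted p under 0.05 the counts were 1, 1 and 0 of 15, beside 0.0509%, 0.0751% and 0.0214% of all rows. The 5 rows below the mean of 0.1 FPKM belonged to Socs2, Socs6 and Cish.

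Socs7, whose protein binds signalling adaptors of the insulin and growth factor pathways, was 6.60, 6.39 and 6.398 FPKM in control on chromosome 11 (chr11:97362551-97398542, plus strand). It was 9.28, 7.54 and 7.96 FPKM at VILI 0 hours, above every control lung, and 6.47, 7.87 and 8.68 FPKM at VILI 6 hours. It rose by 0.34 at VILI 0 hours (SE 0.14, adjusted p = 0.266), a small change over a tight control group. The call was lost when any 1 of control replicates 1, 2 or 3 or of VILI 0 hours replicates 1 or 3 was left out. It was also lost when the replicate number entered the fit as a further factor. The 6 hours value was 0.23 (95% interval -0.08 to 0.55), with 0.35 and a call without VILI 6 hours replicate 1 and 0.14 without replicate 3.

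Socs5, linked to epidermal growth factor receptor turnover, and Socs4, its closest relative, were not called in any comparison with all 9 libraries. Socs5 (chr17:87107679-87137839, plus strand) was 13.8, 11.7 and 13.5 FPKM in control, 9.41, 11.9 and 11.99 FPKM at VILI 0 hours and 13.6, 8.99 and 8.32 FPKM at VILI 6 hours. Its log2 fold changes against control were -0.23 (95% interval -0.66 to 0.19) and -0.37 (95% interval -0.79 to 0.06, adjusted p = 0.297). At VILI 6 hours the 2 lungs other than replicate 1 lay below every control lung, and without replicate 1 the value was -0.58 and passed. Without replicate 3 it was -0.23, and with median-centred libraries -0.24, neither of which passed. Socs4 (chr14:47276931-47296102, plus strand) was 12.56, 12.75 and 13.04 FPKM in control, 11.95, 12.30 and 13.58 FPKM at VILI 0 hours and 12.38, 10.50 and 11.04 FPKM at VILI 6 hours. Its 6 hours lungs lay below control without overlap, with a log2 fold change of -0.18 (95% interval -0.41 to 0.06), which was -0.25 and passed without VILI 6 hours replicate 1 and was -0.13 without replicate 2. With median-centred libraries this Socs4 value was -0.05 and did not pass.

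Socs6 (chr18:88665224-88927481, minus strand), which acts on the receptor tyrosine kinase Kit and on insulin signalling, was not called, and its 3 lungs of VILI 6 hours spanned the values of all other libraries. It was 6.82, 8.61 and 7.50 FPKM in control, 10.47, 7.17 and 9.43 FPKM at VILI 0 hours and 4.12, 11.1 and 9.21 FPKM at VILI 6 hours. Log2 fold changes against control were 0.23 (95% interval -0.50 to 0.95) and -0.02 (95% interval -0.74 to 0.70). Of its 5 rows 4 were tested and 0 were called, and row 1 held 51.4% to 82.5% of the sum. These intervals are wide and do not show that Socs6 stayed level.

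VILI 6 hours replicate 1 bore on most members at that time. It was the lowest of the 3 lungs for Socs2, Socs3, Socs6, Socs7 and Cish and the highest for Socs4 and Socs5. Without it, 6 of 8 members passed in VILI 6 hours vs control in place of 2, namely Socs2, Socs3, Socs4, Socs5, Socs7 and Cish, and from VILI 0 hours to VILI 6 hours 5 of 8 passed in place of 1. In VILI 0 hours vs control, where it enters only through the shared estimate of the spread, 5 of 8 passed in place of 3. The share of all genes called moved as well. It was 38.8% without that library in place of 20.4% in VILI 6 hours vs control and 23.2% in place of 16.2% in VILI 0 hours vs control. Between the times, 4349 of 19378 genes (22.4%) were called without it in place of 1937.

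The genes whose levels followed a called member most closely were taken by Pearson's r of log2(FPKM + 0.1) over the 9 libraries among 14100 genes. For Socs3 they were Sbno2 (r = 0.992), Fcgr2b (r = 0.990) and Serpina3n (r = 0.978). For Cish they were Nkd1 (r = 0.993), Carhsp1 (r = 0.982) and Sh3pxd2b (r = 0.981). For Socs1 they were Huwe1 (r = 0.978), Scfd2 (r = 0.951) and Muc4 (r = 0.950), and for Socs7 Dazap2 (r = 0.985), Wasf2 (r = 0.984) and Ifngr1 (r = 0.984). The points share libraries and groups, and each list is the top 3 of many, so these are descriptions only.

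Over all genes, 16.2% were called at VILI 0 hours and 20.4% at VILI 6 hours in either direction, and 5.06% were higher and 4.94% lower between the times, and the counts of the pathway lists stand beside these shares. Of 18 tested ligand genes (23 listed), 1 was higher and 2 lower at VILI 0 hours with a median log2 fold change of -0.05, and 5 were higher and 3 lower at VILI 6 hours with a median of 0.06, beside medians of -0.07 and -0.09 over all genes. The 3 of 18 called at VILI 0 hours are near the share of all genes. Osm, which encodes oncostatin M of the interleukin-6 family, was 0.317 to 0.359 FPKM in control, 1.16, 2.22 and 6.61 FPKM at VILI 0 hours and 1.18, 1.65 and 6.19 FPKM at VILI 6 hours, above control in 6 of 6 lungs. It rose by 2.63 (adjusted p = 0.109) and 2.48 (adjusted p = 0.111). Tslp, an epithelial cytokine, fell by 0.69 at VILI 0 hours (adjusted p = 0.141) and Clcf1, another interleukin-6 family ligand, by 0.51 (adjusted p = 0.307).

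Il6 was 0.138 to 0.277 FPKM in control and 0.0961 to 0.386 FPKM at VILI 0 hours. The 6 hours lungs had 0.306, 1.58 and 19.3 FPKM, and it rose by 2.93 against control (adjusted p = 0.194). Csf3, which encodes granulocyte colony-stimulating factor, was listed at 0 in all 3 control lungs, was 0, 0.0753 and 0.0202 FPKM at VILI 0 hours, and was 0, 1.17 and 17.7 FPKM at VILI 6 hours (adjusted p = 0.199). From 0 to 6 hours Il6 rose by 3.02 (adjusted p = 0.423). Csf3 was called too (adjusted p = 0.482), but all its VILI 0 hours values lay under the 0.1 added before the logarithm, so no fold change is given. Both were highest in VILI 6 hours replicate 3 and lowest in replicate 1, as was Socs3. Lif, a further gp130 ligand, was 0.945 to 1.61 FPKM in control, 0.308 to 0.748 FPKM at VILI 0 hours and 0.408 to 2.86 FPKM at VILI 6 hours, and rose by 1.32 from 0 to 6 hours (adjusted p = 0.490). The count of 5 higher ligands at 6 hours was 1 without VILI 6 hours replicate 3 or control replicate 3, and 2 without control replicate 1 or 2. From 0 to 6 hours 5 ligands were higher and 1 lower, and the 5 ran down to 0 without VILI 0 hours replicate 3.

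Of 25 receptor genes, 6 were higher and 2 lower at VILI 0 hours (median 0.16), and 7 were higher and 4 lower at VILI 6 hours (median 0.19). Csf3r, the receptor for granulocyte colony-stimulating factor to which SOCS3 binds and also 1 of the 8 neutrophil markers, was 6.29 to 7.47 FPKM in control, 23.7 to 57.1 FPKM at VILI 0 hours and 24.7 to 36.8 FPKM at VILI 6 hours. It rose by 2.34 (adjusted p = 0.0247) and 2.07 (adjusted p = 0.0217). Il6ra, the interleukin-6 receptor, was 11.8 to 12.8 FPKM in control and 24.4 to 29.3 FPKM at VILI 0 hours, a rise of 1.09 (adjusted p = 0.0627), and Il7r rose by 1.17 (adjusted p = 0.227). Il4ra rose by 1.52 at VILI 6 hours (adjusted p = 0.0962) and Csf2rb by 1.29 (adjusted p = 0.0587). From 0 to 6 hours Osmr, the oncostatin M receptor, rose by 0.87 (adjusted p = 0.393), while Lifr fell by 0.62 (adjusted p = 0.152) and Il7r by 0.98 (adjusted p = 0.490). Leaving out 1 library gave 5 to 7 higher receptors at VILI 0 hours and 7 to 10 at VILI 6 hours, and the 4 lower at VILI 6 hours became 2 without control replicate 2. The 2 lower at VILI 0 hours became 1 without control replicate 1 or VILI 0 hours replicate 3 and 4 without VILI 6 hours replicate 1.

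Among the 10 JAK and STAT genes reported here, Stat3 rose at 6 hours. Stat3, through which interleukin-6 signals, was 29.0 to 30.6, 35.2 to 39.1 and 36.5 to 60.1 FPKM in the 3 groups and rose by 0.74 at VILI 6 hours (adjusted p = 0.0733). Jak3 rose by 0.45 at VILI 6 hours (adjusted p = 0.117) and by 0.56 between the times (adjusted p = 0.231). Stat5a rose by 0.59 (adjusted p = 0.370) and Stat4 fell by 0.70 (adjusted p = 0.443) between the times. In all, 0 were called at VILI 0 hours (median -0.10), 2 were higher and 0 lower at VILI 6 hours (median 0.06), and 3 were higher and 1 lower between them (median 0.07). The 2 of 10 at VILI 6 hours are near the share of all genes, 20.4%. Without VILI 6 hours replicate 1 or 3 there was 1 higher gene at VILI 0 hours and 1 lower at VILI 6 hours. The 1 lower gene between the times was lost without VILI 0 hours replicate 1 or 2 or VILI 6 hours replicate 1 or 2.

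**Figure D4:**
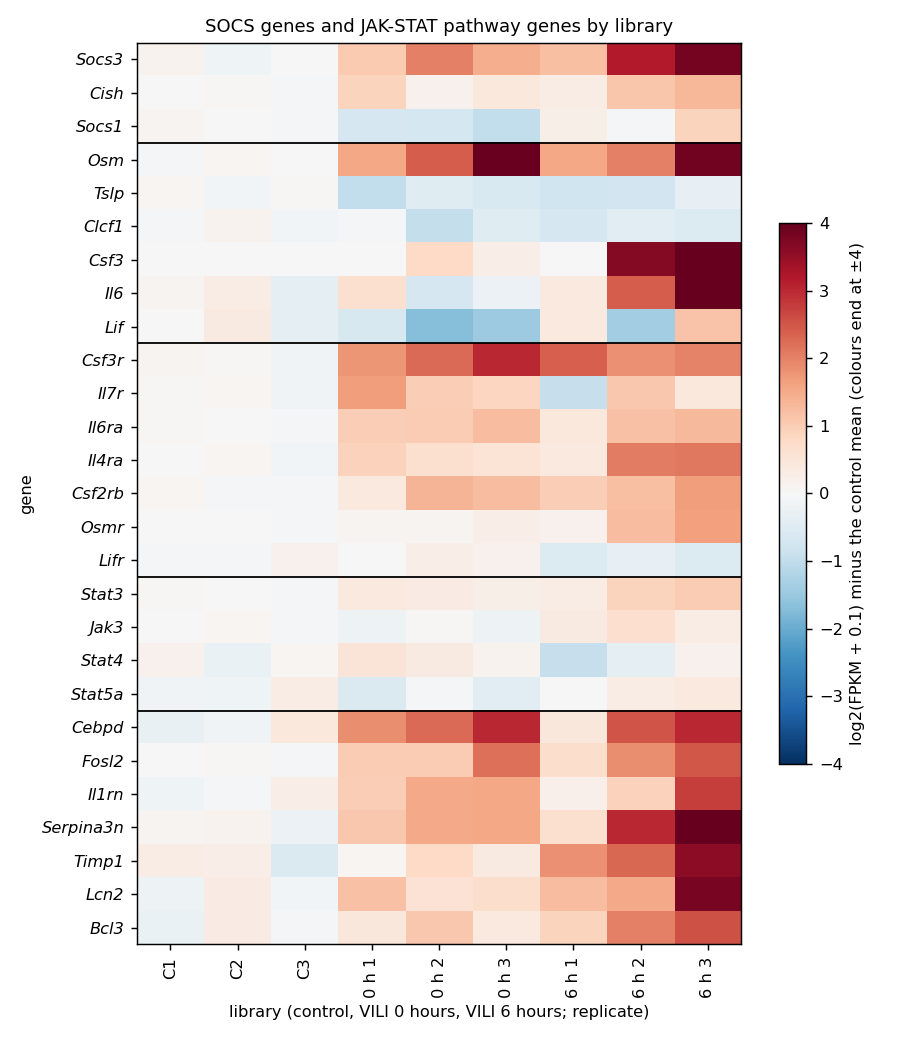
Log2(FPKM + 0.1) minus the control mean (colour, ending at 4 in each direction) for 3 SOCS genes and the named ligands, receptors, JAK and STAT genes and STAT3 targets (rows, in blocks parted by lines) in the 9 libraries (columns; C, control, then VILI 0 hours and VILI 6 hours with the replicate number). VILI 6 hours replicate 3 is the darkest red column for Socs3, Il6, Csf3, Serpina3n, Timp1 and Lcn2, and VILI 6 hours replicate 1 is paler than the other 6 hours columns for Socs3, Cebpd and Serpina3n.

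The other inhibitors of the pathway were called in both directions against control. Of 12 genes, 2 were higher and 2 lower at VILI 0 hours, and 2 were higher and 1 lower at VILI 6 hours (median 0.33). Ptpn1, a phosphatase that acts on JAKs, was 16.2 to 18.8 FPKM in control, 25.4 to 31.8 FPKM at VILI 0 hours and 24.1 to 48.6 FPKM at VILI 6 hours, and rose by 0.68 (adjusted p = 0.184) and 0.97 (adjusted p = 0.0733). Ptpn11, another phosphatase of the pathway, rose by 0.34 at VILI 6 hours (adjusted p = 0.123). Usp18, which restrains interferon receptor signalling, fell by 0.46 (adjusted p = 0.232) and 0.49 (adjusted p = 0.169). Cbl, a ubiquitin ligase of receptor kinases, fell by 0.92 at VILI 0 hours (adjusted p = 0.120) and rose by 1.34 from 0 to 6 hours (adjusted p = 0.152), with 8.58 FPKM in control replicate 2 beside 17.4 and 18.1 FPKM in the other two. The 2 higher genes at VILI 6 hours became 4 without VILI 6 hours replicate 1, and the 2 higher at VILI 0 hours became 1 without any 1 of the control lungs or VILI 0 hours replicate 1 or 3.

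SOCS boxes recruit elongins and cullins. Of 8 elongin, cullin and related genes, 0 were called against control at either time, with medians of 0.03 and -0.05 and beside 16.2% and 20.4% of all genes. Ube2m, which encodes a NEDD8-conjugating enzyme, fell by 0.28 from 0 to 6 hours (adjusted p = 0.487), a call that 6 of the 9 left-out libraries removed. Of 14 other SOCS box proteins, 2 were higher and 0 lower at VILI 0 hours (median 0.02), near the share of all genes, and 2 were higher and 2 lower at VILI 6 hours (median -0.16). Spsb1 was 7.71 to 8.08 FPKM in control, 15.97 to 22.2 FPKM at VILI 0 hours and 9.07, 28.1 and 31.0 FPKM at VILI 6 hours. It rose by 1.2 (adjusted p = 0.186) and 1.32 (adjusted p = 0.127), and VILI 6 hours replicate 1 was again the lowest of its group. Spsb3 rose by 0.33 at VILI 0 hours (adjusted p = 0.205). Spsb2 fell by 0.75 at VILI 6 hours (adjusted p = 0.153), although its row with the highest mean gave 0.03, and Asb13 fell by 0.36 (adjusted p = 0.237). From 0 to 6 hours Spsb2 fell by 0.76 (adjusted p = 0.373) and Spsb3 by 0.26 (adjusted p = 0.476). Leaving out control replicate 2 left 0 of the 2 lower genes at VILI 6 hours, VILI 6 hours replicate 1 gave 4, and each of the other 7 libraries gave 1.

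Growth factor and insulin signalling proteins bound by SOCS proteins were called in both directions. The list also holds Tirap and Irak1 of Toll-like receptor signalling. Of 11 tested (12 listed), 4 were higher and 2 lower at VILI 0 hours (median 0.21) and 4 were higher and 3 lower at VILI 6 hours (median 0.07). Irs2, an insulin receptor substrate, rose by 0.89 (adjusted p = 0.206) and 0.80 (adjusted p = 0.195), whereas Irs1 fell by 0.72 at VILI 6 hours (adjusted p = 0.206) and by 0.77 from 0 to 6 hours (adjusted p = 0.423). Tirap, an adaptor of Toll-like receptors, rose by 0.65 at VILI 6 hours (adjusted p = 0.129). Egfr, the epidermal growth factor receptor, was 5.595 to 6.64 FPKM in control and 8.60 to 12.1 FPKM at VILI 0 hours, and rose by 0.74 (adjusted p = 0.113). Ptk2, a focal adhesion kinase, fell by 0.59 (adjusted p = 0.0892). The 4 higher genes at VILI 0 hours were 1 without VILI 0 hours replicate 3 and 2 without any 1 of the control lungs, and the 4 at VILI 6 hours were 2 without control replicate 3 or VILI 6 hours replicate 2.

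Downstream, STAT3 target genes were called only in the higher direction with all 9 libraries in the fit. Of 17 genes, 8 were higher at VILI 0 hours with a median of 0.81, and 15 were higher at VILI 6 hours with a median of 1.45, beside 6.81% and 8.17% of all genes and medians of -0.07 and -0.09. Between the times 5 were higher and 0 lower, with a median of 0.28. Leaving out 1 library gave 6 to 11 at VILI 0 hours and 13 to 16 at VILI 6 hours, and the 5 became 9 without VILI 6 hours replicate 1 and 3 without VILI 0 hours replicate 2. Lower calls appeared without VILI 6 hours replicate 3, 1 at VILI 0 hours and 2 between the times, and without VILI 0 hours replicate 1, 1 between the times, while VILI 6 hours vs control had 0 with any 1 library left out. With only the 6 libraries compared, 1 was lower at VILI 0 hours. The list comes from general knowledge but was chosen with earlier results of these data known, so its counts are descriptions only. Several of its genes, such as Lcn2 and Il1rn, are also made by neutrophils. The 8 neutrophil markers were higher at the same times, with medians of 3.71 and 4.19, and their part in these counts was not tested.

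Cebpd, a transcription factor of the acute phase, was 8.90 to 14.7 FPKM in control and 39.6 to 89.4 FPKM at VILI 0 hours, and rose by 2.38 (adjusted p = 0.103). Fosl2, a transcription factor of the AP-1 group, rose by 1.41 (adjusted p = 0.168) and Il1rn, the interleukin-1 receptor antagonist, by 1.35 (adjusted p = 0.255) at the same time. By 6 hours Serpina3n, a protease inhibitor, was 29.2, 149.3 and 306 FPKM against 15.6 to 20.5 FPKM in control, and rose by 2.57 (adjusted p = 0.103). Timp1, an inhibitor of matrix metalloproteinases, was 1.62 to 3.08 FPKM in control, 2.62 to 4.37 FPKM at VILI 0 hours and 8.90, 12.5 and 30.5 FPKM at VILI 6 hours. Timp1 rose by 2.56 at VILI 6 hours vs control (adjusted p = 0.0353) and by 2.14 from 0 to 6 hours (adjusted p = 0.173). Lcn2 rose by 2.18 at VILI 6 hours (adjusted p = 0.0978), where it reached 880.9 FPKM in replicate 3, and by 1.37 from 0 to 6 hours (adjusted p = 0.458), and Bcl3 rose by 1.18 between the times (adjusted p = 0.367).

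STAT5 and growth hormone target genes were called 3 higher and 3 lower of 8 at VILI 0 hours (median 0.44) and 3 higher and 1 lower at VILI 6 hours (median 0.39). Osm is on this list too, and the 3 lower genes became 1 without control replicate 2. Cdkn1a, which encodes a cell cycle inhibitor, was 14.2 to 19.0 FPKM in control, 207.1, 43.0 and 173.1 FPKM at VILI 0 hours and 22.4, 133.2 and 201.6 FPKM at VILI 6 hours, and rose by 2.83 (adjusted p = 0.135) and 2.38 (adjusted p = 0.156). Bcl2l1, an inhibitor of apoptosis, was 28.2 to 31.0 FPKM in control and 82.6 to 132.4 FPKM at VILI 0 hours, and rose by 1.84 (adjusted p = 0.0926) and 1.43 (adjusted p = 0.130). Ccnd1 rose by 0.51 from 0 to 6 hours (adjusted p = 0.369). Other signals regulate these genes as well, and the list gives no measure of STAT5 activity.

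**Figure D5:**
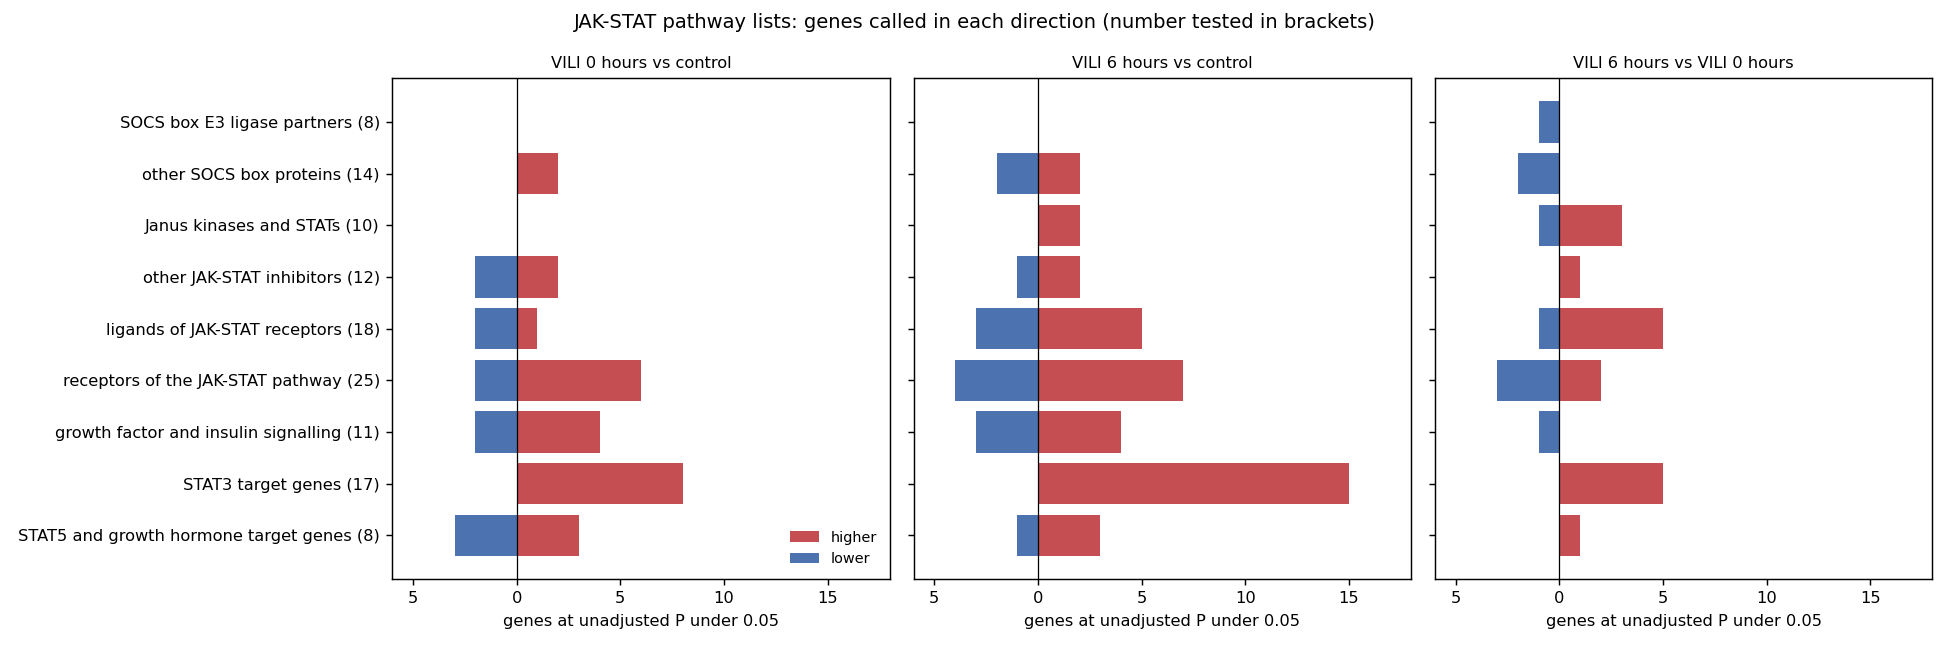
Number of genes of each pathway list with an unadjusted P under 0.05 (x axis), higher to the right in red and lower to the left in blue, for the 3 comparisons; brackets give the genes tested. STAT3 target genes have the longest red bars against control, 8 and 15 of 17, with no blue bar.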

How the data were processed

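The study sequenced whole lung RNA of 9 mice, 3 per group, and groups were taken from the sample labels. The authors filtered and aligned the reads, assembled transcripts and deposited 1 FPKM value for each transcript and library. The submitters' processing notes name Bowtie2 2.0.6, TopHat2 2.0.9, Cuffdiff 2.1.1 and the build GRCm38. Column sums were 366360 to 388459 FPKM. The table gives no counts and the read totals given by the study were not used here, and with neither a count model nor a counting interval, the number of mice limits the precision.

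Of 23713 Ensembl gene IDs, 23580 matched GENCODE M21, which gave names and positions, and 3490 further loci had been assembled by the authors. FPKM were summed per gene. A linear model with moderated variances and a mean-variance trend (limma 3.58.1, R 4.3.3) was fitted to log2(FPKM + 0.1) with group as the factor, over 19378 genes and 37300 rows with a mean of at least 0.1 FPKM, and was tested on simulated data. Figures used matplotlib 3.10.9.

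The members and gene lists were chosen with earlier results of these data known. Named were the 8 members with their rows and, per list and comparison, up to 3 genes with the largest change among those with P under 0.05 and a mean of at least 1 FPKM. Of each marker list the summed level was given, and of each called member the 3 genes most like it. Cell type lists covered neutrophils, alveolar macrophages, monocytes, T cells, B cells, alveolar type 2, endothelial, cardiac muscle and erythroid cells. Alternatives were other pseudocounts, filters and centring, the replicate number as a block, a fit of only 6 libraries, no variance trend, the highest-mean row of a gene and each library left out. The library kit and sequencer in the labels differ from those in the study's methods, and the files do not settle which applies. Some genes of the pathway are not reported here.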

Additional observations from a re-analysis of the deposited data

Results flagged for a closer look

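Socs1 was singled out because its level differed between the 2 times after ventilation: it was lower than control at VILI 0 hours (log2 fold change -0.79), while the value at VILI 6 hours was 0.36, not called with all 9 libraries and called without VILI 6 hours replicate 2 (0.56). The difference between the 2, which share the control group, equals the step from 0 to 6 hours of 1.15 (SE 0.23, adjusted p = 0.180 by limma), higher in all 3 lungs of VILI 6 hours than in all 3 of VILI 0 hours.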

How the results depend on the processing

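Depth could not be read from FPKM, so the spread of 3 mice sets the limit. The fall of Socs1 at VILI 0 hours, its rise from 0 to 6 hours, the rises of Socs3 and Cish at VILI 6 hours and the changes of Socs2 rows 1 and 2 against control kept their direction and their call under all alternatives run for them. Median-centring the libraries moved the median of all genes by 0.11 and 0.13 in the 2 comparisons with control and by 0.01 between the times.

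The count of called members in VILI 0 hours vs control was 3. It was 5 with only the 6 libraries compared (26.3% of all genes called, against 16.2%) and 5 with the highest-mean row of each gene (14.0%), and 1 to 5 with 1 library left out, the lowest being without control replicate 2 (10.2%) and the highest without VILI 6 hours replicate 1 (23.2%). In VILI 6 hours vs control it was 2 (20.4%), and 2 to 6 with 1 library left out, the highest without VILI 6 hours replicate 1 (38.8%). Between the times it was 1, and 1 to 5, the highest again without that library (22.4%). Among rows, 5 called at VILI 6 hours became 3 to 8, with 8 without VILI 6 hours replicate 1 (24.3% of all rows, against 13.2%) and 3 without control replicate 2 or VILI 6 hours replicate 2 or 3 (9.08% to 9.88%), and 1 between the times (7.40%) became 1 to 4 (14.3% without VILI 6 hours replicate 1).

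Same-numbered libraries did not deviate together (correlations of -0.221 to 0.017), but 3 libraries per group cannot settle whether the numbers pair the mice. A replicate block gave 2 called members between the times (8.74% of all genes), since Socs3 then passed, and 3 called rows at VILI 6 hours (11.6% of all rows), and Socs7 then lost its call at VILI 0 hours.

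Directions turned as follows. With the highest-mean row, Socs2 was -1.31 and -1.07 against control and 0.24 between the times, Cish was -0.13 between the times and Spsb2 was 0.03 at VILI 6 hours. With median-centring, Socs4 was 0.09 at VILI 0 hours and Socs6 was 0.11 at VILI 6 hours. With 1 library left out, Socs2 ran from -0.03 to 0.41 at VILI 6 hours and from -0.29 to 0.15 between the times, Socs4 from -0.08 to 0.02 at VILI 0 hours, and Socs6 from -0.30 to 0.41 at VILI 6 hours and from -0.52 to 0.18 between the times. Between the times Socs5 ran from -0.35 to 0.00 and Socs7 from -0.20 to 0.01. Of these sums, that of Spsb2 had been called in the comparison concerned and the others had not. Of 54 list counts, 34 moved by over 1.5 times when some library was left out, 15 of them without VILI 6 hours replicate 1. Over all alternatives run for the named list genes, their calls were kept in 902 values, lost in 159 and reversed in direction in 1. The causes were not tested.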
